A study of Mus musculus with 8 samples.

Results

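Colon RNA of wild-type mice at day 12 of dextran sulfate sodium (DSS) colitis was set against colon RNA of wild-type mice at steady state. The comparison was made between the library titled WT_DSS and the library titled WT, which are 2 of the 8 libraries of the series. Of 54715 annotated genes, 50477 were kept by the rule of the comparison, and 16087 of these had a mean transcript level of at least 1 TPM over the 2 libraries. TPM is the share of a gene's transcripts in a library, corrected for transcript length and scaled to a fixed total. Genes on chromosomes X and Y, 19 genes of the accessory sex glands, and 10 genes whose deposited TPM and FPKM did not keep the fixed ratio of their library were left out.

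The mice were of the BALB/cA strain, either wild type or DCIR-/-. DCIR is an inhibitory lectin receptor of myeloid cells, encoded by Clec4a2. WT DSS is wild-type colon taken at day 12 after DSS was started, and WT is wild-type colon at steady state. Set beside them here are DCIR-/- DSS, knockout colon at day 12, and DCIR-/-, knockout colon at steady state, which share no library with the wild-type pair. Every group held 1 library, so no difference has a replicate check and no test was possible. The submitters' design text speaks of 5 samples where 8 are listed, and the labels give neither the number of animals behind a library nor the age of the mice or the dose of DSS.

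DSS is a sulfated polysaccharide that damages the colon epithelium when mice drink it. Bacteria then reach the tissue beneath, neutrophils and monocytes enter, and the epithelium makes antimicrobial and acute-phase proteins. During recovery, crypt cells divide and spread over the wounds, and the absorptive, mucus-making and stromal programmes of the colon are restored. In bulk tissue, fewer cells of a type and less RNA per cell cannot be told apart.

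Both libraries were of similar depth, with 3.35 gigabases of aligned sequence in WT DSS and 2.89 gigabases in WT. Genes at 1 TPM or more numbered 16429 in WT DSS and 16594 in WT. Hoxb13, a homeobox gene of the distal colon, was present in both and stood at 296 TPM in WT DSS and 384 TPM in WT. Prostate RNA was present too, as given below, and which tissue gave the Hoxb13 reads was not tested. Small intestinal Sis was nearly absent, at 0.0352 TPM in WT DSS and 0.0432 TPM in WT. Clec4a2 (chr6:123106428-123143999, GRCm38) stood at 4.33 TPM in WT DSS and 2.96 TPM in WT. In the knockout pair it was listed at 0 TPM in DCIR-/- DSS but at 0.659 TPM in the library labelled DCIR-/-. The sources used here do not give the deleted part of the gene, so that label is in doubt, and directions drawn from the knockout pair rest on it. RNA of prostate and accessory glands was in all 4 libraries. Its 22 markers summed to 8821 TPM in WT DSS and 5203 TPM in WT. The steady-state files list assembled loci beside annotated genes and the DSS files do not, so file content and DSS cannot be told apart.

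Sequences of 4 genes that differed strongly are shown because their promoters all hold the letters of a TATA box (TATAAA, searched on both strands, in capitals). Each is the 300-base window from 250 bases before to 50 bases after the start site, on the gene's strand, from RefSeq on GRCm38.p6. S100a8 and S100a9, neighbours that encode calprotectin, lie at chr3:90668821-90669120 (plus strand) and chr3:90695672-90695971 (minus strand). Wfdc18, a secreted protein with a whey acidic protein domain, lies at chr11:83708754-83709053 (plus strand). Tgm3, a transglutaminase and the only one of the 4 that was lower in WT DSS, lies at chr2:130012090-130012389 (plus strand).
S100a8: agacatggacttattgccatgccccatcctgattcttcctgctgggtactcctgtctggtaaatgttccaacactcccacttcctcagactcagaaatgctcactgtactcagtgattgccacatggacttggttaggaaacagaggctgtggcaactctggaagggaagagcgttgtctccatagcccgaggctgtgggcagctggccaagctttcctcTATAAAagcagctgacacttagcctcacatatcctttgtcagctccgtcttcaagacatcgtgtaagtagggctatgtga
S100a9: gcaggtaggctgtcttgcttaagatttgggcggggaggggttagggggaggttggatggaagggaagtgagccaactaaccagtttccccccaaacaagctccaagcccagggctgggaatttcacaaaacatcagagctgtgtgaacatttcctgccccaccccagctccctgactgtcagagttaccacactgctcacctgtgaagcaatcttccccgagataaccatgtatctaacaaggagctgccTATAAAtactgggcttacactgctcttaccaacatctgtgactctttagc
Wfdc18: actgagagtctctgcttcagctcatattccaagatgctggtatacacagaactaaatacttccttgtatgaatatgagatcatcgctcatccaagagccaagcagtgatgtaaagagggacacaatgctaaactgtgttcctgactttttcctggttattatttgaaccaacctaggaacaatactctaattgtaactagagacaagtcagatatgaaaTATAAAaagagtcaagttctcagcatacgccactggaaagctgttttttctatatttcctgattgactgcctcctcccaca
Tgm3: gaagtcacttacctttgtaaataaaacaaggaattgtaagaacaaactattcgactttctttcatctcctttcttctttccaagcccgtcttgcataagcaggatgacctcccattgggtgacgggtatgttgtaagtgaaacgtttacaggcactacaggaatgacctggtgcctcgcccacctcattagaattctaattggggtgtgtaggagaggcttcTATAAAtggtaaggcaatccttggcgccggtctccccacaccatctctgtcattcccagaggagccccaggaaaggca
The letters stand 30 bases before the start site in S100a8, 31 before it in Wfdc18 and 28 before it in Tgm3, and at the start site itself in S100a9. TATAAA was in 13.6% of all 32841 promoter windows. Of the 15 named genes that were higher in WT DSS, 10 had a window and 4 of these held it. Of the 15 named genes that were lower, 14 had a window and 3 held it. Among these 3, Methig1 and Mettl7a2 have the same window. Counts of named genes are per gene, and some have several windows, whereas the shares over all are per window. A STAT site (TTCNNNGAA, in 8.30% of all windows) was in 0 of the 10 and 1 of the 14. An AP-1 site (TGANTCA, in 7.81%) was likewise in 0 of the 10 and 1 of the 14. An NF-kB site (in 4.51% of windows) was in 0 of the 10 and 0 of the 14. A match is only a match of letters.

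A microRNA gene was also among the 15 genes with the largest difference. Mir429 (chr4:156053905-156053987, minus strand) belongs to the miR-200 family, which is known for holding back the switch from epithelial to mesenchymal state. Its mature sequences, shown because they identify the gene, have the seed (bases 2 to 8) in capitals and come from RefSeq on GRCm38.p6, at chr4:156053916-156053937 and chr4:156053954-156053974.
mmu-miR-429-3p: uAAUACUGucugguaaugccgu
mmu-miR-429-5p: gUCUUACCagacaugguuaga
Mir429 stood at 14.6 TPM in WT DSS and 0.0959 TPM in WT, and at 30.3 TPM in DCIR-/- DSS, while it was listed at 0 in DCIR-/-. The annotated gene is only 83 bases long, so a small amount of sequence gives a high TPM. Whether these reads came from the mature miRNA or from the longer primary transcript was not tested.

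Between the 2 wild-type libraries most genes differed little. Of the 16087 genes compared, 441 (2.74%) were at least 2-fold higher in WT DSS and 634 (3.94%) were at least 2-fold lower, on the scale of log2(TPM + 1). The other 15012 were within 2-fold, and the median difference over all genes compared was -0.05. At 4-fold, 62 genes (0.385%) were higher and 57 (0.354%) lower. Log2 differences throughout are WT DSS minus WT and understate the change of low genes. The 2-fold line is only a size, since nothing here measures how far untreated wild-type colons differ among themselves.

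Annotated entries and assembled loci of the WT file were also compared. Of the 441 genes higher in WT DSS, 217 had a matching assembled locus in WT, and for 175 of these (80.6%) its TPM was within 1.5-fold of the annotated value. Against the locus, 160 of the 217 (73.7%) were still at least 2-fold higher in WT DSS. Of the 634 genes lower in WT DSS, 355 had such a locus, 320 (90.1%) were within 1.5-fold and 347 (97.7%) were still at least 2-fold lower. Over all genes with a match the share within 1.5-fold was 94.7%. Only the WT value was replaced, so a locus above it shrinks a higher difference and enlarges a lower one. The shares still past 2-fold in the 2 directions are therefore not comparable. Genes higher in WT DSS were also shorter. Their longest annotated transcripts had a median of 1619 bases, against 2019 bases for genes that were lower and 2890.5 bases for genes within 2-fold. What transcript length and the choice of entry contribute to the calls was not tested.

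**Figure D1:**
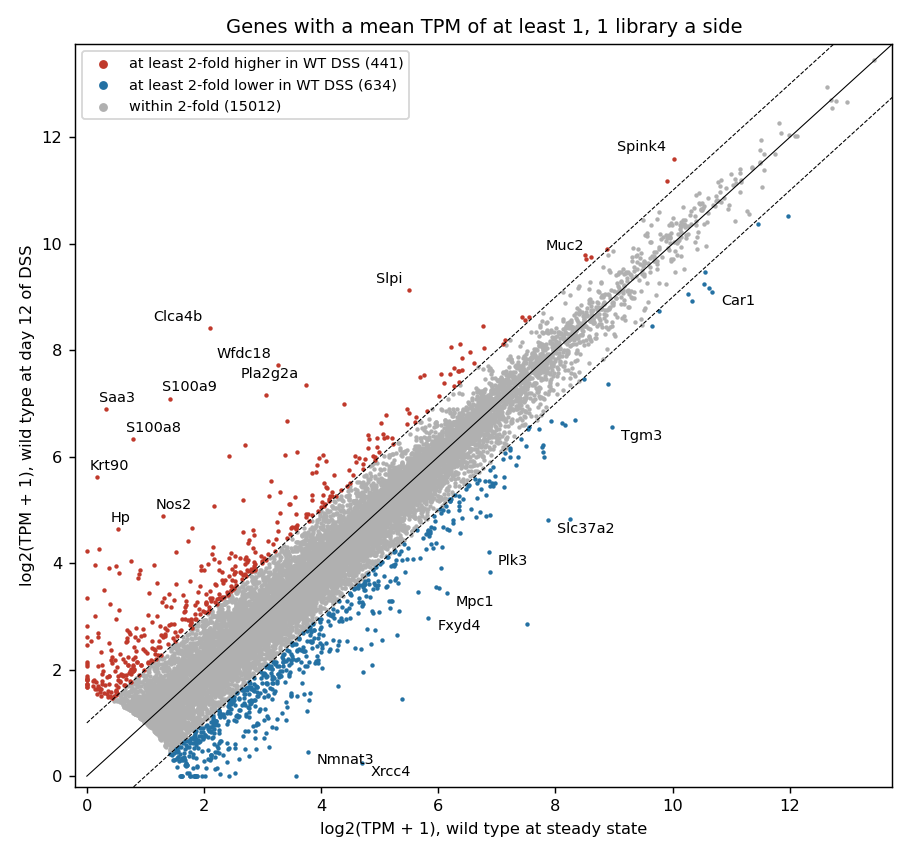
Each point is 1 of the 16087 genes compared, with log2(TPM + 1) in WT at steady state on the x axis and in WT at day 12 of DSS on the y axis; the solid line marks equality and the dashed lines 2-fold. The 441 genes at least 2-fold higher in WT DSS are red, the 634 at least 2-fold lower are blue, and Saa3, Clca4b and the S100 genes lie farthest above the line.

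The largest difference was that of Saa3 (chr7:46711998-46715700), a serum amyloid A protein made by epithelium and macrophages in inflammation. It stood at 118 TPM in WT DSS and 0.251 TPM in WT, a log2 difference of 6.57. Its knockout values were 4.14 TPM in DCIR-/- DSS and 3.71 TPM in DCIR-/-, so WT DSS stood high among all 4 libraries. S100a9 (chr3:90692632-90695721) and S100a8 (chr3:90668978-90670035) encode the paired subunits of calprotectin, the zinc-binding protein that fills the neutrophil cytoplasm. S100a9 was at 136 TPM in WT DSS and 1.66 TPM in WT (log2 difference 5.68), and S100a8 at 79.3 TPM in WT DSS and 0.722 TPM in WT. Both were under 3 TPM in the knockout libraries, with S100a9 at 2.1 TPM in DCIR-/- DSS and 0.633 TPM in DCIR-/- and S100a8 at 0.859 TPM in DCIR-/- DSS and 0.530 TPM in DCIR-/-.

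Slpi, an inhibitor of neutrophil elastase (chr2:164354070-164389095), was at 562 TPM in WT DSS and 44.4 TPM in WT (log2 difference 3.63), the highest level in WT DSS among the 15 genes with the largest positive difference. Wfdc18, whose promoter is shown above, was at 209.9 TPM in WT DSS and 8.66 TPM in WT (log2 difference 4.45). Pla2g2a, a secreted phospholipase that attacks bacterial membranes, was at 162 TPM in WT DSS and 12.4 TPM in WT. These 3 genes were also higher in DCIR-/- DSS than in DCIR-/-, with log2 differences of 1.52 for Slpi, 2.09 for Wfdc18 and 2.04 for Pla2g2a. Hp, haptoglobin, which binds free haemoglobin, was at 23.8 TPM in WT DSS and 0.442 TPM in WT. Its log2 difference was 4.11. In the knockout pair the order was the other way, with 3.43 TPM in DCIR-/- DSS and 13.5 TPM in DCIR-/-. Fat cells also make haptoglobin, and the 16 adipocyte markers summed to 364 TPM in WT DSS and 186 TPM in WT, and to 384 TPM in DCIR-/- DSS and 1323 TPM in DCIR-/-. Their part in the Hp values was not tested.

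Clca4b, of the chloride channel accessory family, was at 339 TPM in WT DSS against 3.29 TPM in WT, a log2 difference of 6.31. Its knockout values were 109 TPM in DCIR-/- DSS and 16.6 TPM in DCIR-/-. Krt90, a type II keratin, was at 48.2 TPM in WT DSS and 0.128 TPM in WT (log2 difference 5.45). Nos2 (chr11:78920787-78960254), the inducible nitric oxide synthase, was at 28.4 TPM in WT DSS and 1.46 TPM in WT. Ddah1, which degrades methylated arginines that inhibit such synthases, was at 18.3 TPM in WT DSS and 0.159 TPM in WT. Each of these 4 genes was higher with DSS in the knockout pair too, by 2.64, 1.98, 1.32 and 0.92 log2 units in that order.

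The remaining named genes that were higher are known from other cell types. Mcpt2, a protease of mucosal mast cells, was at 14.1 TPM in WT DSS and 0.301 TPM in WT, and at 15.8 TPM in DCIR-/- DSS and 0.517 TPM in DCIR-/-. Its log2 differences of 3.53 in wild type and 3.47 in knockout were close in size. Myl7, a myosin light chain best known from the heart atrium, was at 63.8 TPM in WT DSS and 4.39 TPM in WT (log2 difference 3.59). Lcp1, the actin bundler L-plastin of leukocytes, was at 73.9 TPM in WT DSS and 5.48 TPM in WT by its annotated entry. The assembled locus over Lcp1 in the WT file was listed at 46.8 TPM, so most of this difference depends on which entry of that file is read.

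**Figure D2:**
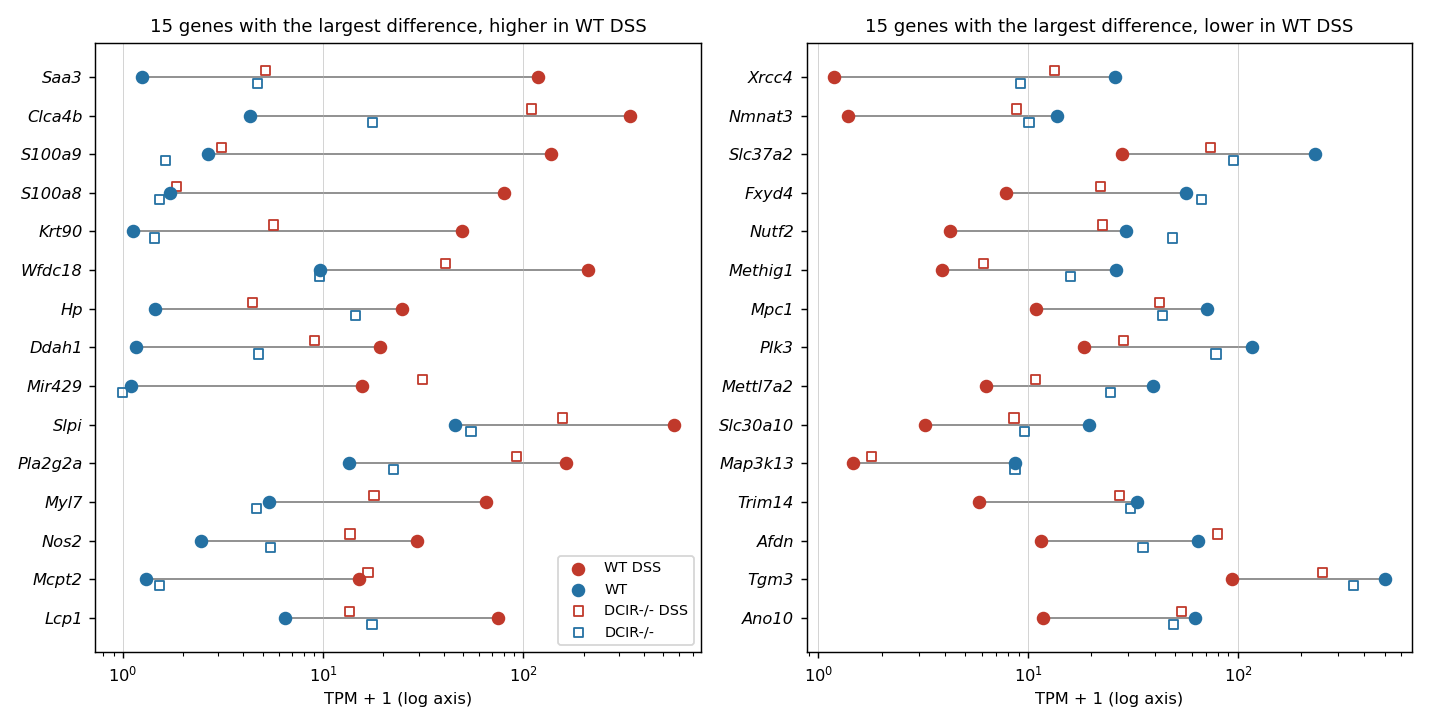
TPM + 1 on a log axis of the 15 genes with the largest difference in each direction, with filled circles for WT DSS (red) and WT (blue) joined by a line and open squares for DCIR-/- DSS (red) and DCIR-/- (blue). Saa3, S100a8 and S100a9 are high in WT DSS alone, whereas Mcpt2 is high in both DSS libraries; Xrcc4 and Nmnat3 are low in WT DSS alone.

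Genes with the largest negative difference included several of transport. Slc37a2 (chr9:37227585-37255738), a sugar-phosphate transporter of the endoplasmic reticulum, was at 27 TPM in WT DSS and 233 TPM in WT (log2 difference -3.06). Fxyd4, a regulator of the sodium pump in distal colon, was at 6.86 TPM in WT DSS and 55.8 TPM in WT (log2 difference -2.85). Mpc1, a subunit of the mitochondrial pyruvate carrier, was at 9.86 TPM in WT DSS and 69.8 TPM in WT. Slc30a10, an exporter of manganese, was at 2.24 TPM in WT DSS and 18.5 TPM in WT. Of these 4, Fxyd4 was also lower in the knockout pair by more than 2-fold, at 21.1 TPM in DCIR-/- DSS and 66.1 TPM in DCIR-/-. The log2 differences of the other 3 there were -0.37 for Slc37a2, -0.05 for Mpc1 and -0.17 for Slc30a10.

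Tgm3 (chr2:130012349-130050399), which cross-links proteins, had the highest WT level among the 15 genes with the largest negative difference, at 92.8 TPM in WT DSS and 499.99 TPM in WT (log2 difference -2.42). Plk3, a stress-responsive kinase, was at 17.4 TPM in WT DSS and 116 TPM in WT, and in the knockout pair at 27.5 TPM in DCIR-/- DSS and 77.5 TPM in DCIR-/-. Ano10, of the family of calcium-activated channels and scramblases, was at 10.7 TPM in WT DSS and 61.4 TPM in WT. Map3k13, a kinase upstream of JNK, was at 0.464 TPM in WT DSS and 7.65 TPM in WT and differed alike in knockout, at 0.788 TPM in DCIR-/- DSS and 7.64 TPM in DCIR-/-. Trim14, an adaptor of antiviral signalling, was at 4.85 TPM in WT DSS and 31.8 TPM in WT.

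The largest negative difference was that of Xrcc4 (chr13:89774027-90089608), a DNA ligase IV partner in end joining, at 0.187 TPM in WT DSS and 24.8 TPM in WT (log2 difference -4.44). Its knockout values were 12.3 TPM in DCIR-/- DSS and 8.14 TPM in DCIR-/-, so WT DSS stood low among the 4 libraries. Nmnat3, which makes NAD in mitochondria, was at 0.378 TPM in WT DSS and 12.7 TPM in WT, against 7.76 and 9.09 TPM in DCIR-/- DSS and DCIR-/-. Afdn, the adherens junction protein afadin, was at 10.5 TPM in WT DSS and 63.6 TPM in WT (log2 difference -2.49) but was higher in DCIR-/- DSS (78.7 TPM) than in DCIR-/- (34.2 TPM). Nutf2, which carries Ran into the nucleus, was at 3.25 TPM in WT DSS and 28.3 TPM in WT. Methig1 and Mettl7a2 share a start site and may share reads. Methig1 was at 2.89 TPM in WT DSS and 25.3 TPM in WT. Mettl7a2 was at 5.28 TPM in WT DSS and 38.4 TPM in WT.

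Gene lists were then read, each by how many of its members stood past 2-fold and by its median over all kept members. The 48 lists hold 1013 genes, of which 1012 were matched and 845 were compared. Of these, 84 were higher in WT DSS and 38 lower, to be set against 2.74% and 3.94% of all genes. Members were chosen with earlier results of these data known, so their shares describe the lists and are no evidence of enrichment. A gene near 0 TPM in either library also passes the filter on mean TPM only if it is high in the other. Counts of members past 2-fold are partly set by that filter.

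**Figure D3:**
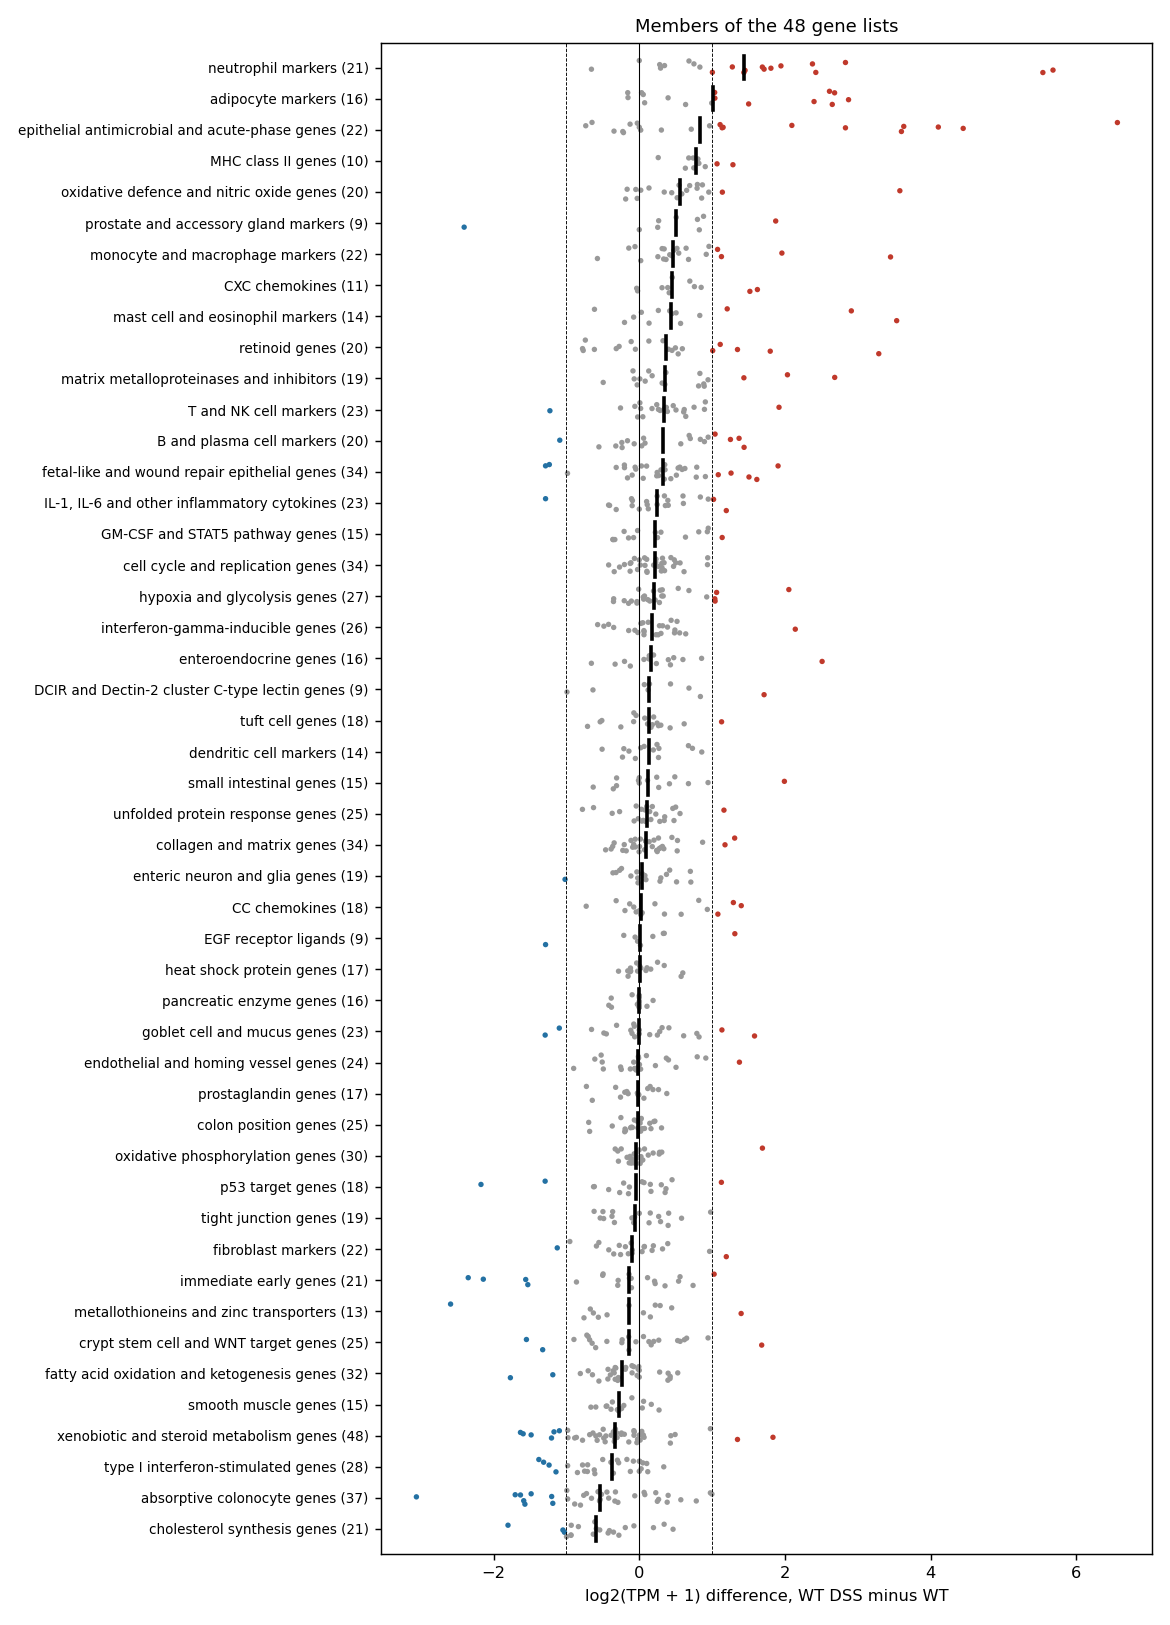
Log2(TPM + 1) difference, WT DSS minus WT, of each kept member of 48 gene lists, with the number of kept members in brackets, a black bar at the median and dashed lines at 2-fold. Kept members past 2-fold are red (higher) or blue (lower), also those under a mean of 1 TPM, which the counts in the text leave out. Neutrophil markers have the highest median, 1.44, and cholesterol synthesis genes the lowest, -0.59.

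Neutrophil markers stood highest. Of 21 members, 13 were compared, 12 of them were at least 2-fold higher in WT DSS and 0 were lower, and the median over all 21 was 1.44. Members near 0 TPM in WT, such as Il1r2, Cxcr2 and Stfa2l1, passed the filter on mean TPM only through WT DSS. The count of 12 was therefore partly set by the filter, whereas the median was taken without it. Receptors were among the members that were higher. Il1r2, the decoy receptor for interleukin-1, was at 5.12 TPM in WT DSS and 0.140 TPM in WT. Csf3r, the receptor for G-CSF, was at 5.86 TPM in WT DSS and 0.781 TPM in WT. Cxcr2, the receptor for neutrophil-attracting chemokines, was at 2.46 TPM in WT DSS and 0.0710 TPM in WT. Granule and secreted proteins followed. Lcn2, which binds bacterial iron carriers, was at 14.7 TPM in WT DSS and 1.21 TPM in WT. WT stood low for all 4 of these. Retnlg, a resistin-like protein of neutrophils, was at 9.9 TPM in WT DSS and 1.1 TPM in WT. Mmp9, a gelatinase, was at 7.5 TPM in WT DSS and 2.14 TPM in WT. Ltf, lactoferrin of secondary granules, was at 2.73 TPM in WT DSS and 0.537 TPM in WT. Stfa2l1, a stefin, was at 2.5 TPM in WT DSS and listed at 0 in WT. Every member compared was higher in WT DSS past 2-fold except Ly6g, a surface protein of neutrophils, at 369 TPM in WT DSS and 301 TPM in WT. It makes up most of the list's sum of 663 TPM in WT DSS and 318 TPM in WT. The source of the Ly6g reads in WT, where Csf3r was at 0.781 TPM and Cxcr2 at 0.0710 TPM, was not tested. Some granule genes were scarce. Elane was at 0 in both libraries, Mpo was at 0 TPM in WT DSS and 0.577 TPM in WT, and Ngp was at 0.214 TPM in WT DSS and 0 TPM in WT. The knockout pair had 1 marker higher and 0 lower of 8 compared, with a median of 0. These 8 were the markers that passed that pair's own filter, so the counts of the pairs cover different members. Over all 16333 genes compared in that pair, 1.9% were higher and 7.92% lower.

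Fewer macrophage markers were past 2-fold. Of 21 compared, 4 were higher and 0 lower, with a median of 0.46. Arg1, arginase 1, was at 14.4 TPM in WT DSS against 0.413 TPM in WT (log2 difference 3.45). Spp1, osteopontin, was at 4.16 TPM in WT DSS and 0.327 TPM in WT. Cd14, a co-receptor for lipopolysaccharide, was at 106 TPM in WT DSS and 48 TPM in WT. Gpnmb, a glycoprotein of lipid-laden macrophages, was at 8.64 TPM in WT DSS and 3.58 TPM in WT. Markers shared by most tissue macrophages were within 2-fold. C1qa, of complement, was at 237 TPM in WT DSS and 148 TPM in WT. Adgre1, which encodes F4/80, was at 9.12 TPM in WT DSS and 10.2 TPM in WT. Dendritic cell markers gave 0 higher and 0 lower of 11 compared. Of 20 macrophage markers compared in the knockout pair, 7 were lower and 0 higher.

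Of 20 B and plasma cell genes, 4 were higher in WT DSS and 1 was lower. Of those higher, 3 are described, all genes of B cells before the plasma cell stage. Cd79a, of the B cell receptor, was at 81.6 TPM in WT DSS and 33.7 TPM in WT. Cd79b, its partner, was at 85.3 TPM in WT DSS and 32.4 TPM in WT. Both chains were above their WT level. Ighd, the IgD constant region, was at 63.4 TPM in WT DSS and 22.8 TPM in WT. The member that was lower, Jchain, which joins IgA molecules in plasma cells, was at 704 TPM in WT DSS and 1502 TPM in WT. Igha itself was at 4165 TPM in WT DSS and 4372 TPM in WT, within 2-fold. Of 20 T and NK cell genes 1 was higher and 1 lower. Trac, the constant region of the T cell receptor alpha chain, was at 13.6 TPM in WT DSS and 2.86 TPM in WT. Cd28, a costimulatory receptor, was at 0.557 TPM in WT DSS and 2.65 TPM in WT. Cxcl13, which draws B cells into follicles, was at 79.8 TPM in WT DSS and 27.2 TPM in WT. Glycam1, a ligand on homing vessels, was at 10.1 TPM in WT DSS and 3.3 TPM in WT. The knockout pair had 0 B and plasma cell genes higher and 6 lower.

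MHC class II genes present antigen to helper T cells, and all 10 had a log2 difference above 0. Past 2-fold were 2 higher and 0 lower, with a median of 0.78. H2-Oa, which restrains peptide loading, was at 15.3 TPM in WT DSS and 5.68 TPM in WT. H2-DMb2, which promotes it, was at 37.3 TPM in WT DSS and 17.3 TPM in WT. H2-Aa, a class II alpha chain, was at 412 TPM in WT DSS and 219.6 TPM in WT. Cd74, the invariant chain, was at 1417 TPM in WT DSS and 848 TPM in WT. In the knockout pair the median was -0.32, and 0 of 10 were past 2-fold either way.

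Mast cell proteases differed in both genotypes. Mcpt1, a chymase of mucosal mast cells close in sequence to Mcpt2, was at 32.9 TPM in WT DSS and 3.5 TPM in WT and at 43.7 TPM in DCIR-/- DSS and 2.77 TPM in DCIR-/-. Both DSS libraries stood above both steady-state libraries for Mcpt1 and Mcpt2. Mcpt4, of connective tissue mast cells, was at 4.17 TPM in WT DSS and 1.24 TPM in WT. Of 14 mast cell and eosinophil markers 7 were under the filter and not compared. These 3 proteases were higher, and the other 4 compared were within 2-fold. Cpa3, a carboxypeptidase, was at 3.68 TPM in WT DSS and 2.43 TPM in WT. Kit, the stem cell factor receptor, was at 11.6 TPM in WT DSS and 18.3 TPM in WT. Eosinophil genes were low. Prg2, major basic protein, was under the filter, at 1.46 TPM in WT DSS and 0.385 TPM in WT.

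Of 23 inflammatory cytokines kept, 12 had a mean of at least 1 TPM, and 2 of these were higher and 1 lower. Il1b, a product of activated myeloid cells, was at 17.8 TPM in WT DSS and 8.28 TPM in WT. Il11, of fibroblasts, was at 2.39 TPM in WT DSS and 0.483 TPM in WT. Areg, an EGF receptor ligand, was at 22.7 TPM in WT DSS and 56.9 TPM in WT. Il6, Ifng and Il22 were below 1 TPM in WT DSS and listed at 0 in WT. Of 8 compared CXC chemokines 2 were higher. Cxcl11, a ligand of CXCR3, was at 2.43 TPM in WT DSS and 0.114 TPM in WT, and Cxcl13 is given above. Of 15 CC chemokines 2 were higher and 0 lower. Ccl8, which attracts monocytes, was at 80.5 TPM in WT DSS and 29.9 TPM in WT. Ccl3, a product of activated leukocytes, was at 3.44 TPM in WT DSS and 0.815 TPM in WT. Tnf, Il17a, Cxcl2 and Csf2 are among the 10 genes left out for their TPM and FPKM and were not read. Stat5a and Stat5b are also among the 10 genes left out and were not read. Of the 15 kept genes of the GM-CSF and STAT5 pathway 1 was higher and 0 lower, beside 2.74% higher over all genes. It was Socs3, a feedback inhibitor of cytokine receptors, at 34.4 TPM in WT DSS and 15.1 TPM in WT. The receptor chains were within 2-fold. Csf2ra was at 18.2 TPM in WT DSS and 15.5 TPM in WT. Csf2rb was at 5.6 TPM in WT DSS and 6.32 TPM in WT.

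Of 26 compared genes induced by type I interferon, 0 were higher and 4 were lower, with a median of -0.37. Oas3, an oligoadenylate synthetase, was at 4.07 TPM in WT DSS and 12.2 TPM in WT. Rsad2, viperin, was at 2.95 TPM in WT DSS and 8.82 TPM in WT. Oasl2 was at 22.3 TPM in WT DSS and 54 TPM in WT. Oas2 was at 3.03 TPM in WT DSS and 7.9 TPM in WT. All 4 act in antiviral defence. Of 26 compared in the knockout pair, 19 were lower, with a median of -1.47 beside -0.21 over all its compared genes. Of 26 genes induced by interferon gamma, Ido1, which breaks down tryptophan, was higher, at 18.6 TPM in WT DSS and 3.45 TPM in WT (log2 difference 2.14), and 0 were lower. Ido1 was higher with DSS in knockout as well, at 44 TPM in DCIR-/- DSS and 6.54 TPM in DCIR-/-, where 12 others of the list were lower.

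Epithelial antimicrobial and acute-phase genes followed neutrophil markers in the number of members higher. Of 17 compared, 9 were higher and 0 lower, with a median of 0.84. Of these, 6 are given above (Saa3, Wfdc18, Hp, Slpi, Pla2g2a and Lcn2). Retnlb, a goblet cell protein that kills bacteria, was at 11.3 TPM in WT DSS and 1.87 TPM in WT. C3, complement component 3, was at 96.8 TPM in WT DSS and 43.5 TPM in WT. Lbp, which carries lipopolysaccharide, was at 12.7 TPM in WT DSS and 5.36 TPM in WT. The bactericidal lectin Reg3g was low, at 0.953 TPM in WT DSS and 0 TPM in WT. Its relative Reg3b was low too, at 0.982 TPM in WT DSS and 1.52 TPM in WT. Saa1 was abundant at 1372 TPM in WT DSS and 2153 TPM in WT, and the assembled locus over it was listed at 4279 TPM in WT. In oxidative defence 2 of 19 were higher, Nos2 and Duoxa2. Duoxa2, which matures the dual oxidase of the apical membrane, was at 57.2 TPM in WT DSS and 25.4 TPM in WT. Duox2 itself was at 64.1 TPM in WT DSS and 35 TPM in WT. The knockout pair gave 4 antimicrobial and acute-phase genes higher and 3 lower of 19 compared.

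Absorptive colonocyte genes were the list with most members lower. Of 34 compared, 0 were higher and 8 lower, with a median of -0.54. Carbonic anhydrases feed the exchange of acid and base. Car1 was at 543 TPM in WT DSS and 1633 TPM in WT, a log2 difference of -1.59. Car4 was at 348 TPM in WT DSS and 803 TPM in WT. Pck1, an enzyme of gluconeogenesis, was at 66.9 TPM in WT DSS and 220.2 TPM in WT. WT stood above WT DSS for each of these and for the enzymes that follow. Cyp2c55, a cytochrome P450, was at 103 TPM in WT DSS and 321 TPM in WT. Sult1a1, a sulfotransferase, was at 98.2 TPM in WT DSS and 277 TPM in WT. Transporters were Slc37a2, given above, and the phosphate carrier Slc20a1. Slc20a1 was at 73.4 TPM in WT DSS and 220.02 TPM in WT, and its assembled locus was listed at 484 TPM in WT. Aqp8, a water channel, was just within 2-fold at 356 TPM in WT DSS and 710.3 TPM in WT. Other genes of mature surface cells were within 2-fold. Guca2a, the hormone guanylin, was at 1035 TPM in WT DSS and 1080.4 TPM in WT. Krt20, a keratin, was at 707 TPM in WT DSS and 542 TPM in WT. Of 33 compared in knockout, 0 were lower and 1 was higher. Genes of position along the colon were within 2-fold in all 19 compared, and smooth muscle genes in all 15, with sums of 8354 TPM in WT DSS and 8694 TPM in WT. Hoxa6, a Hox gene outside the list that was chosen after its value was seen, was lower, at 1.95 TPM in WT DSS and 10.1 TPM in WT, and at 4.64 TPM in DCIR-/- DSS and 10.8 TPM in DCIR-/-.

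Goblet cell genes were split. Muc2, the gel-forming mucin, was at 858 TPM in WT DSS and 390.3 TPM in WT. Spink4, a peptide secreted with it, was at 3103 TPM in WT DSS and 1035 TPM in WT. Both were higher with DSS in knockout too, with Muc2 at 897 TPM in DCIR-/- DSS and 367 TPM in DCIR-/- and Spink4 at 2222 TPM in DCIR-/- DSS and 883 TPM in DCIR-/-. Clca1, a protease that expands mucus, was lower, at 607 TPM in WT DSS and 1489.6 TPM in WT. The kallikrein Klk1 was also lower, at 1321 TPM in WT DSS and 2829 TPM in WT. The other 15 members compared were within 2-fold, and the median was 0. Tff3, a trefoil repair peptide, was at 3292 TPM in WT DSS and 3449 TPM in WT. Zg16, a lectin that binds bacteria, was at 6599.7 TPM in WT DSS and 7073 TPM in WT. Among hormone genes of enteroendocrine cells only Cck was past 2-fold, at 5.49 TPM in WT DSS and 0.139 TPM in WT, while Pyy was at 967 TPM in WT DSS and 638 TPM in WT. Among 10 compared tuft cell genes only Ltc4s, which also serves in leukocytes, was higher, at 11.6 TPM in WT DSS and 4.77 TPM in WT.

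Among stem cell and repair genes a few members were past 2-fold, to be read beside 2.74% higher and 3.94% lower over all genes. List medians were -0.14 for crypt and WNT target genes and 0.32 for fetal-like and wound repair genes. Of 22 crypt and WNT target genes 1 was higher, Prom1, a membrane protein of crypt cells, at 109 TPM in WT DSS and 33.5 TPM in WT. Lower were 2 genes. Sox9, a crypt transcription factor, was at 23.7 TPM in WT DSS and 71.4 TPM in WT. Rgmb, a BMP co-receptor, was at 21.8 TPM in WT DSS and 56.3 TPM in WT. These 3 differed the same way in knockout, by 1.08 for Prom1, -1.49 for Sox9 and -1.26 for Rgmb. Lgr5, the stem cell receptor, was low, at 0.421 TPM in WT DSS and 1.15 TPM in WT. Of 29 fetal-like and wound repair genes 4 were higher and 2 lower. Anxa8, an annexin, was at 186 TPM in WT DSS and 65 TPM in WT. Ly6a, which marks repairing epithelium, was at 395 TPM in WT DSS and 186 TPM in WT. Sprr1a, of cornified layers, was at 19.7 TPM in WT DSS and 5.77 TPM in WT. Krt14, of basal epithelium, was at 14.8 TPM in WT DSS and 3.2 TPM in WT. Those lower were Areg, given above, and the YAP target Ccn1, at 10.3 TPM in WT DSS and 25.6 TPM in WT. None of 34 cell cycle genes was past 2-fold, with the proliferation marker Mki67 at 19 TPM in WT DSS and 18.8 TPM in WT and a list median of 0.21. None of 17 tight junction genes and none of 15 prostaglandin genes was past 2-fold either, with Ptgs2 at 3.36 TPM in WT DSS and 3.84 TPM in WT.

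Several matrix-degrading enzymes were higher. Of 16 metalloproteinases and inhibitors, 3 were higher and 0 lower. Mmp10, of wound-edge epithelium, was at 17.5 TPM in WT DSS and 1.88 TPM in WT. Mmp3, of stromal cells, was at 16.9 TPM in WT DSS and 3.37 TPM in WT. Mmp9 is given above. The knockout pair had Mmp10 at 2.33 TPM in DCIR-/- DSS and 2.68 TPM in DCIR-/- and Mmp3 at 5.24 TPM in DCIR-/- DSS and 5.37 TPM in DCIR-/-. Of 34 collagen and matrix genes 2 were higher and 0 lower. Col18a1, a basement membrane collagen, was at 58.8 TPM in WT DSS and 23.1 TPM in WT. Lox, which cross-links collagen, was at 13.1 TPM in WT DSS and 5.22 TPM in WT. Fibrillar collagen was within 2-fold, with Col1a1 at 167 TPM in WT DSS and 116 TPM in WT. Nrg1, a stromal ligand of ERBB receptors, was at 4.81 TPM in WT DSS and 1.34 TPM in WT. Wnt2b, a fibroblast WNT ligand, was lower, at 2.06 TPM in WT DSS and 5.69 TPM in WT.

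Among metabolic lists, cholesterol synthesis had the lowest median, -0.59. Of 21 compared genes 0 were higher and 3 lower. Dhcr7, the last enzyme of the pathway, was at 22.7 TPM in WT DSS and 81.6 TPM in WT (log2 difference -1.80). Hsd17b7, a sterol reductase, was at 6.74 TPM in WT DSS and 15 TPM in WT. Dhcr7 went the other way in knockout, at 72.8 TPM in DCIR-/- DSS and 30.8 TPM in DCIR-/-. Of 39 xenobiotic and steroid genes 2 were higher and 6 lower, among them the efflux pump Abcb1a at 71.4 TPM in WT DSS and 218 TPM in WT. Of 29 genes of fatty acid oxidation 0 were higher and 2 lower, among them the lipid-sensing receptor Ppara at 0.542 TPM in WT DSS and 4.26 TPM in WT. Retinoid genes gave 5 higher and 0 lower of 17, among them Dhrs9, Aldh1a3, Aldh1a1 and Cyp26b1. Dhrs9, which oxidises retinol, was at 15.5 TPM in WT DSS and 0.683 TPM in WT. Aldh1a3, which makes retinoic acid, was at 51.6 TPM in WT DSS and 14.1 TPM in WT. Both were also higher in the knockout pair, by 2.45 and 1.21 log2 units, where 2 of the list's genes were higher and 3 lower, with a median of 0. Aldh1a1 was at 35.4 TPM in WT DSS and 13.3 TPM in WT, with its assembled locus at 39.9 TPM in WT.

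Stress and oxygen genes showed single members. Of 21 immediate early genes 1 was higher and 4 lower. Fosb was at 1.08 TPM in WT DSS and 9.59 TPM in WT. Atf3 was at 14 TPM in WT DSS and 65.4 TPM in WT. Nr4a1, an orphan nuclear receptor, was at 12.2 TPM in WT DSS and 38 TPM in WT. Dusp1, a phosphatase of MAP kinases, was at 31.5 TPM in WT DSS and 93 TPM in WT. In knockout, Fosb was at 1.19 TPM in DCIR-/- DSS and 10.9 TPM in DCIR-/-, and Atf3 at 19.6 TPM in DCIR-/- DSS and 72.1 TPM in DCIR-/-. Both steady-state libraries stood above both DSS libraries for these 2 transcription factors. Gdf15, a stress cytokine and p53 target, was lower, at 4.28 TPM in WT DSS and 22.8 TPM in WT. Among 27 hypoxia and glycolysis genes 4 were higher and 0 lower, led by the lactate exporter Slc16a3 at 39.6 TPM in WT DSS and 8.78 TPM in WT. The oxygen sensor Egln3 was at 161 TPM in WT DSS and 76.4 TPM in WT. The other 2 were Eno1 and Pfkfb4, for which the WT assembled loci, at 236 and 14.9 TPM, stood well above the annotated 140.4 and 4.51 TPM. None of 17 heat shock genes was past 2-fold.

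The next lists held 1 or 2 members past 2-fold in a direction, beside 2.74% higher and 3.94% lower over all genes. Counts this small say little about a list. Vessel genes gave 1 of 23 higher, Glycam1. Of 22 fibroblast genes 1 was higher, Il11, and 1 lower, Wnt2b. Of 16 neuron and glia genes 1 was lower, Elavl4, an RNA-binding protein of neurons. Among 18 p53 targets Bbc3, which promotes cell death, was higher at 24.5 TPM in WT DSS and 10.7 TPM in WT. Gdf15 and Plk2 were lower. Of 25 unfolded protein response genes 1 was higher, Herpud1, at 217 TPM in WT DSS and 96.5 TPM in WT, with its assembled locus at 195 TPM in WT. Ndufb8, of respiratory complex I, was the 1 of 30 oxidative phosphorylation genes past 2-fold, at 351 TPM in WT DSS and 108 TPM in WT. Mt3, a metallothionein, was higher at 13.8 TPM in WT DSS and 4.6 TPM in WT. Mptx2, a pentraxin of small intestinal Paneth cells, was at 64.1 TPM in WT DSS and 15.4 TPM in WT, higher in knockout as well (103 TPM in DCIR-/- DSS and 21.6 TPM in DCIR-/-). Clec4d, a neighbour of Clec4a2 in the C-type lectin cluster, was at 5.19 TPM in WT DSS and 0.888 TPM in WT.

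Markers of tissue next to the colon differed as well. Of 12 compared adipocyte genes 8 were higher in WT DSS and 0 lower. The median over all 16 kept, 4 of them under the filter, was 1.02. Adipoq, the fat cell hormone adiponectin, was at 7.05 TPM in WT DSS and 0.0979 TPM in WT. Cfd, adipsin, was at 64.6 TPM in WT DSS and 9.46 TPM in WT. Retn, resistin, was at 5.11 TPM in WT DSS and listed at 0 in WT. Adipoq and Retn passed the filter on mean TPM only through WT DSS, so the count of 8 was partly set by the filter. In the knockout pair 13 of 14 compared were lower and the median was -1.99, with Adipoq at 8.53 TPM in DCIR-/- DSS and 40.4 TPM in DCIR-/-. By its sums, given beside Hp, the library labelled DCIR-/- stood apart from the other 3. The part of fat and gland tissue in the other results was not tested.

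**Figure D4:**
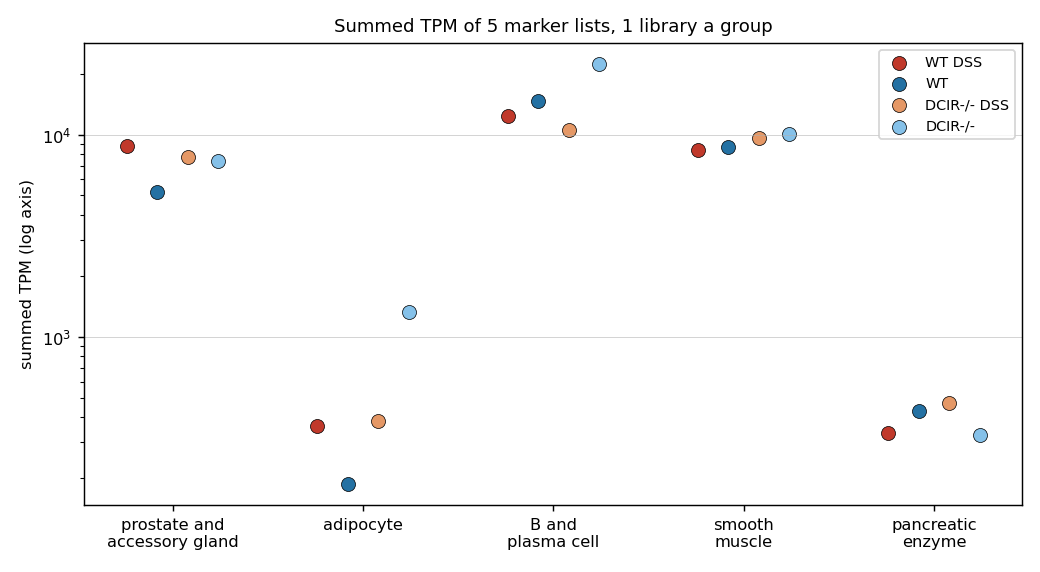
Summed TPM, on a log axis, of 5 marker lists in WT DSS, WT, DCIR-/- DSS and DCIR-/-, with 1 point a library. Prostate and accessory gland markers sum to 8821 TPM in WT DSS and 5203 TPM in WT, adipocyte markers are highest in DCIR-/- at 1323 TPM, and pancreatic enzyme genes sum to 333 TPM in WT DSS and 429 TPM in WT.

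Differences of the wild-type pair were set beside those of the knockout pair. Of the 441 genes higher in WT DSS, 385 were compared in the knockout pair, where 51 (13.2%) were higher, 52 (13.5%) were lower and the median difference was -0.02. Of the 634 genes lower in WT DSS, 595 were compared, of which 18 (3.03%) were higher and 173 (29.1%) lower in the knockout pair, with a median of -0.57. These shares stand beside 1.9% higher and 7.92% lower over all genes of that pair, whose median was -0.21. Genes that differed alike in both pairs included Mcpt1, Mcpt2, Ido1, Dhrs9, Spink4 and Muc2 among those higher, and Fosb, Atf3, Sox9, Map3k13 and Fxyd4 among those lower. Whether the genotypes differ in their response to DSS was not tested, since each group has 1 library.

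**Figure D5:**
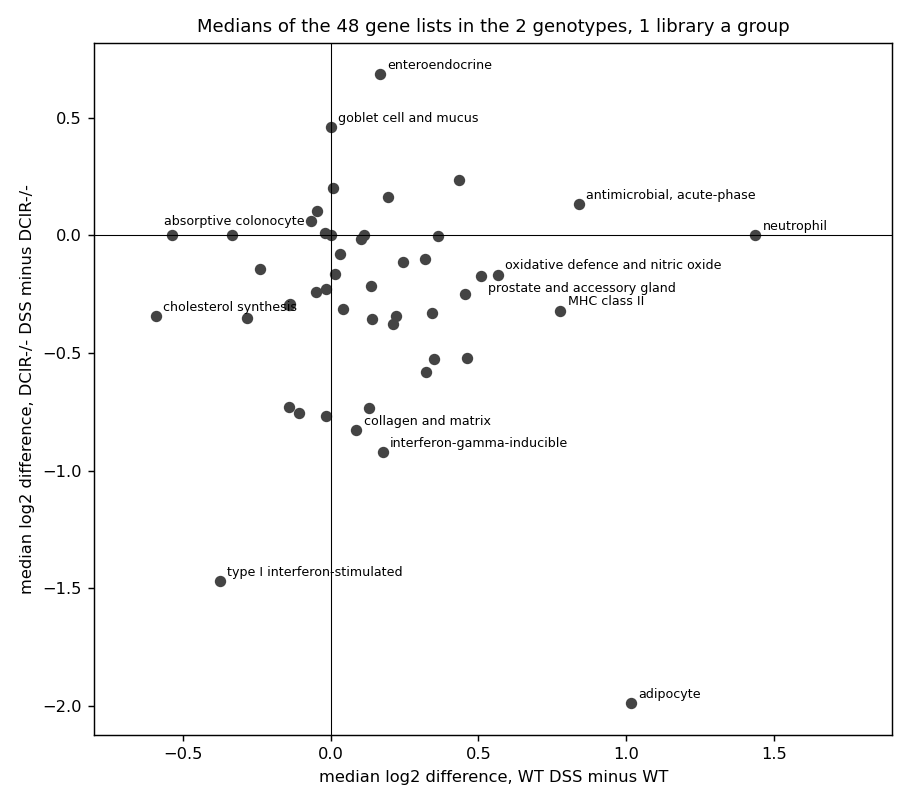
Median log2(TPM + 1) difference of each of 48 gene lists in the wild-type pair (x axis, WT DSS minus WT) and in the knockout pair (y axis, DCIR-/- DSS minus DCIR-/-), with 1 point a list. Neutrophil markers lie at 1.44 in wild type and 0 in knockout, adipocyte markers at 1.02 and -1.99, and type I interferon-stimulated genes at -0.37 and -1.47.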

How the data were processed

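Total RNA of flash-frozen colon was made into libraries with a NEBNext Ultra kit, per the labels' protocols. StringTie and the mouse genome build GRCm38 (mm10) are named per the submitters' processing notes. Aligner, tool versions and the authors' annotation remain not given in the sources used here. Deposited tables give TPM, FPKM and coverage per gene, as the authors made them with no read counts. Coverage divided by FPKM gave the aligned bases of each library, and with 1 library a group precision beyond counting is unknown. Whether reads were assigned by strand is not given, so overlapping genes and close paralogs may share reads.

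Rows with an Ensembl ID were summed per gene, and GENCODE M21 named 54686 of the 54715 genes. TPM divided by FPKM is fixed within a library. Genes whose ratio left its library's median by over 0.1% in any of the 8 libraries (FPKM at least 0.05) were left out. Differences are of log2(TPM + 1), with genes under a mean of 1 TPM left out. Named are, in each direction, the 15 genes with the largest difference and at least 5 TPM in either library (without gene models, immunoglobulin and T cell receptor segments, and gland genes), the 4 leading members of each list at 1 TPM or more, and Clec4a2. Other list members are named for their known role or after their values were seen. Members and lists were chosen with earlier results of these data known. With 1 library a group no p-value was computed. Some list members are not reported here. The calculations were checked on simulated data and run in Python 3.11.15 with numpy 2.4.6, pandas 2.3.3 and matplotlib 3.10.9. Promoter and miRNA sequences are those of RefSeq on GRCm38.p6. An assembled locus was matched to a gene by at least 80% overlap both ways on the same chromosome, a comparison added after the data were seen. Alternatives changed the pseudocount, the filter on low values, the unit, the scaling and the genes left out.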

Additional observations from a re-analysis of the deposited data

Results flagged for a closer look

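Adipocyte markers lay at a median of 1.02 log2 units in the wild-type pair and of -1.99 in the knockout pair, so they lay in opposite directions. Hp had a log2 difference of 4.11 in the wild-type pair and -1.71 in the knockout pair. Afdn had -2.49 in the wild-type pair and 1.18 in the knockout pair. For these 3 the difference between the genotypes was not tested, since each group has 1 library.

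Signals also stood in genes that the comparison left out. Among gland genes, Pbsn, of the prostate, was listed at 3943 TPM in WT DSS and 2197 TPM in WT. Msmb, a prostate secretory protein, was at 327 TPM in WT DSS and 29.5 TPM in WT, with 0.174 TPM in DCIR-/- DSS and 92 TPM in DCIR-/-. Defb50, a beta-defensin, was at 979.6 TPM in WT DSS and 125 TPM in WT, with 37.3 TPM in DCIR-/- DSS and 328 TPM in DCIR-/-. Svs5, of the seminal vesicle, went the other way in wild type, at 0.540 TPM in WT DSS and 117 TPM in WT, and stood at 662 TPM in DCIR-/- DSS and 227 TPM in DCIR-/-, so gland genes did not differ as 1 group. Among chemokines left out because their TPM and FPKM parted in other libraries of the series, the neutrophil attractant Cxcl5 was at 18.8 TPM in WT DSS and 0.523 TPM in WT. Its relative Cxcl3 was at 1.84 TPM in WT DSS and 0.0310 TPM in WT. Cxcl5 kept the ratio of its library in WT DSS and in WT, and Cxcl3 in WT DSS, its value in WT being too low for the check. What drives these values was not tested.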

How the results depend on the processing

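The counts of genes past 2-fold, 441 higher and 634 lower in WT DSS and changed with several settings. A pseudocount of 0.1 gave 718 higher and 983 lower, and one of 5 gave 152 and 209. A mean of at least 5 TPM left 261 higher and 351 lower, fewer genes being compared. FPKM in place of TPM gave 331 higher and 325 lower. Genes whose annotated WT value was within 1.5-fold of an assembled locus, an alternative chosen after seeing the data, numbered 175 higher and 320 lower among 10834 genes. The cause of this drop was not tested. No filter (530 and 732), scaling by the median of ratios (505 and 565), rescaling without gland genes (485 and 669) and keeping chromosomes X and Y (457 and 649) stayed within 1.5 times. Higher genes were 41.0% of those past 2-fold, and between 35.4% and 50.5% under the alternatives run. A list median or a named gene's value was called moved when it changed by more than 1.5-fold. Most list medians were smaller than that step, so they could vanish or change sign without being called moved. Neither filter setting could change a median over kept members. Neither these nor the settings on genes left out could change a named gene's value. By this measure, of 480 list medians under alternatives 4 moved. Neutrophil markers had 2.17 with a pseudocount of 0.1 and 0.56 with 5. Over only those members whose annotated WT value was within 1.5-fold of an assembled locus, their median was 2.27. Adipocyte markers had 0.41 with a pseudocount of 5. Of 281 values of named genes 41 moved, in 19 genes, and none changed sign. No paired analysis was possible because each group has 1 library and no replicate could be left out.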

Other observations

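Further genes differed strongly outside the lists and the 15 named in each direction; they were chosen after their values were seen. Plet1, a surface protein of progenitor and wound epithelium, was at 101 TPM in WT DSS and 9.74 TPM in WT (log2 difference 3.24). Isx, an intestinal homeobox factor that responds to retinoic acid, was at 13.6 TPM in WT DSS and 0.872 TPM in WT. Steap4, a metalloreductase, was at 67.2 TPM in WT DSS and 11 TPM in WT. Mptx1, a pentraxin of the gut, was at 126 TPM in WT DSS and 19.9 TPM in WT. These 4 genes were also higher in the knockout pair, with Plet1 at 1.11, Isx at 1.84, Steap4 at 1.83 and Mptx1 at 2.76 log2 units. Defb1, an epithelial beta-defensin, was at 62.3 TPM in WT DSS and 14.6 TPM in WT, but in the knockout pair at 6.58 TPM in DCIR-/- DSS and 26 TPM in DCIR-/-. Serpina3n, a protease inhibitor of the acute phase, was at 37.2 TPM in WT DSS and 7.62 TPM in WT, and at 12.9 TPM in DCIR-/- DSS and 23.7 TPM in DCIR-/-. Prss22, a serine protease, was at 9.23 TPM in WT DSS and listed at 0 in WT. Ccr6, a chemokine receptor of B cells and other lymphocytes, was at 11.3 TPM in WT DSS and 1.29 TPM in WT by the annotated entry, and its assembled locus in WT was listed at 5.79 TPM.

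Among genes that were lower, Gsdme, a pore-forming gasdermin, was at 0.881 TPM in WT DSS and 8.36 TPM in WT, whereas in the knockout pair it was at 5.83 TPM in DCIR-/- DSS and 0.839 TPM in DCIR-/-. Cflar, which holds back caspase-8, was at 7.47 TPM in WT DSS and 30.8 TPM in WT. Fgf10, a stromal growth factor, was at 0.249 TPM in WT DSS and 5.04 TPM in WT. Lower in both pairs were Acaca, the first enzyme of fatty acid synthesis, at 2.37 TPM in WT DSS and 11.7 TPM in WT, and Add3, a membrane skeleton protein, at 5.67 TPM in WT DSS and 29.4 TPM in WT. Their knockout log2 differences were -2.30 for Acaca and -2.44 for Add3. Ddx60, a helicase of antiviral sensing, was at 7.61 TPM in WT DSS and 28.3 TPM in WT, with -2.50 log2 units in the knockout pair.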
